A study of Mus musculus with 6 samples.

Results

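The core circadian clock genes were examined in the modiolus of adult CBA/CaJ mice. The members were all probe sets annotated to exactly 1 gene among Arntl (also called Bmal1), Clock, Npas2, Per1, Per2, Per3, Cry1, Cry2, Nr1d1 and Nr1d2, which gave 23 probe sets for 10 genes out of 45101 probe sets on the array. The genes were selected on the log2 signals of these same 6 arrays, because earlier results had shown them to differ between the 2 days on which the mice were dissected. The day differences are therefore given as a description, with no test.

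The modiolus, the central bone of the cochlea, encloses the spiral ganglion, and the tissue thus holds neurons, glia, vessels and bone. Each of the 6 arrays measured the RNA of 1 mouse, with the left and right modioli pooled. In the noise-exposed group were 3 females of 1 litter, which received 110 dB SPL noise of 5 to 20 kHz during 5 h when 4 weeks old. The 3 unexposed mice came from 3 other litters, a male (replicate 1), a female (replicate 2) and a male (replicate 3). All were killed at about 8 weeks, between 53 and 59 days after birth. The 3 noise-exposed mice and unexposed replicate 1 were dissected on the first day, and unexposed replicates 2 and 3 on the second, 9 days later. The hour of dissection and the light cycle are not given in the sources used here.

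The clock is a feedback loop of transcription that runs in most cells of the body. CLOCK, or its relative NPAS2, pairs with BMAL1, the product of Arntl, and activates genes through E-box sequences. Among those genes are the Per and Cry repressors, which shut off CLOCK and BMAL1, and the nuclear receptors Nr1d1 and Nr1d2 (REV-ERB alpha and beta), which repress Arntl and Npas2. The activator transcripts Arntl and Npas2 and the Per and Nr1d1 transcripts therefore peak at opposite times of day in many tissues, and the cochlea is known to have such a clock.

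The loop acts through motifs in promoters. The 250 bases before the RefSeq start site (build GRCm38.p6) are shown for Per1 and Cry1, the members with an E-box there, for Nr1d2, a member with a receptor core site, and for Ciart, a further repressor of the loop. These 4 were picked after the motif search, and the lone core sites of Clock and Arntl are not shown. Capitals mark the E-box CACGTG, the D-box TTATGCAA or the receptor core site AGGTCA, which is part of the element that Nr1d receptors bind, on either strand. Each line runs in the direction of transcription.
Per1 (chr11:69098699-69098948, + strand): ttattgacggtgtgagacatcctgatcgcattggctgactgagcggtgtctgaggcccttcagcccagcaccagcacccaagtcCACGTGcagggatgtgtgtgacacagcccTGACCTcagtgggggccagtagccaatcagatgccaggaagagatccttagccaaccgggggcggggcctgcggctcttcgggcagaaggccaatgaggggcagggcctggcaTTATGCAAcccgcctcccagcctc
Cry1 (chr10:85185055-85185304, - strand): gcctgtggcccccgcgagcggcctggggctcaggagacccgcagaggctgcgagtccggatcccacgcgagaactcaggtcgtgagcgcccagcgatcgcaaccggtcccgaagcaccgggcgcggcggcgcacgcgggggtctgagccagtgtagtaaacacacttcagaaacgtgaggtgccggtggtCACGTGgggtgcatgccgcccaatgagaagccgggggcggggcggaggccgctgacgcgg
Nr1d2 (chr14:18239107-18239356, - strand): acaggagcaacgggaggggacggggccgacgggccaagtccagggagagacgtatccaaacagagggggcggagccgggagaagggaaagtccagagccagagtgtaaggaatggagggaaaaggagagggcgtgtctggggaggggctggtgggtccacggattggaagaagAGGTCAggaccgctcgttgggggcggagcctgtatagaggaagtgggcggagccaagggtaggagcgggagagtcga
Ciart (chr3:95882229-95882478, - strand): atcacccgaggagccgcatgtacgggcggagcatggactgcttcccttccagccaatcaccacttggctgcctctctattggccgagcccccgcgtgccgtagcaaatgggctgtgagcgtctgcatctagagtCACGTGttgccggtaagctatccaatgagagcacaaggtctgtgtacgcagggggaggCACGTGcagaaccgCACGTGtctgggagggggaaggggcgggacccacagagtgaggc

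Counted from the start site, the E-box of Per1 began at -166, the core site at -137 and the D-box at -24, while a second Per1 promoter in the table had no match. The Cry1 promoter held 1 E-box at -60, the Nr1d2 promoter 1 core site at -77, and the Ciart promoter 3 E-boxes at -116, -58 and -44. The reference table held 13 promoters of 9 member genes, each reaching from 250 bases before to 50 bases after a start site, and Per2 was not among them. An E-box stood in 2 of these 13 and in 7.15% of all 32851 promoters of the table. A D-box, searched as TTATGCAA or TTACGTAA, stood in 1 of the 13 against 0.858% of all, and the core site in 4 of the 13 against 16.3%. Both strands were searched, the motifs marked here did not overlap, and a match describes letters only.

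Before the results, the arrays and the tissue were checked. A probe set was tested if its signal lay above the authors' cutoff, which rounds to 4.3 on the log2 scale, on at least 3 of the 6 arrays. This held for 25200 probe sets of 11861 genes. Of the 23 clock probe sets 19 were tested, and each of the 10 genes had at least 1 of them. Markers of the labelled tissue were present, with 7 of 8 neuronal and 5 of 6 central glial marker genes tested, while only 1 of 6 skeletal muscle and 1 of 5 hair cell markers were. Of the Schwann and satellite glial list, 4 of 7 genes were matched to a probe set here and all 4 were tested. Total RNA input was 15, 18 and 10 ng for the noise-exposed mice and 21 ng for unexposed replicate 1, and 8 ng for each of the mice of the second day, so the day moved with the input. The excess of the end over the start of the beta-actin transcript was 1.93 to 2.28 (log2) on the first day and 1.97 to 2.08 on the second. For Gapdh it was 1.17 to 1.49 against 1.22 to 1.32.

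Arrays of the first and second day were compared first. All 7 Per, Cry and Nr1d genes had a higher signal on every first-day array than on either second-day array, on their brightest tested probe set. The means of the 3 activator genes were lower on the first day, but on the brightest probe sets only Npas2 was separated, while Arntl and Clock overlapped. Over the 19 tested probe sets, 12 were higher on all 4 first-day arrays, 2 were lower on all 4, and 5 overlapped. Of all 25200 tested probe sets 7.86% were separated upward and 9.16% downward. The separated difference was 1 or more (2-fold) for 4 clock probe sets, those of Per1, Per2, Nr1d1 and Npas2, against 0.397% of all tested probe sets. Because the days were the ground for choosing these genes, nothing is read from these counts. In bulk tissue, fewer cells of a type and less RNA per cell cannot be told apart.

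**Figure D1:**
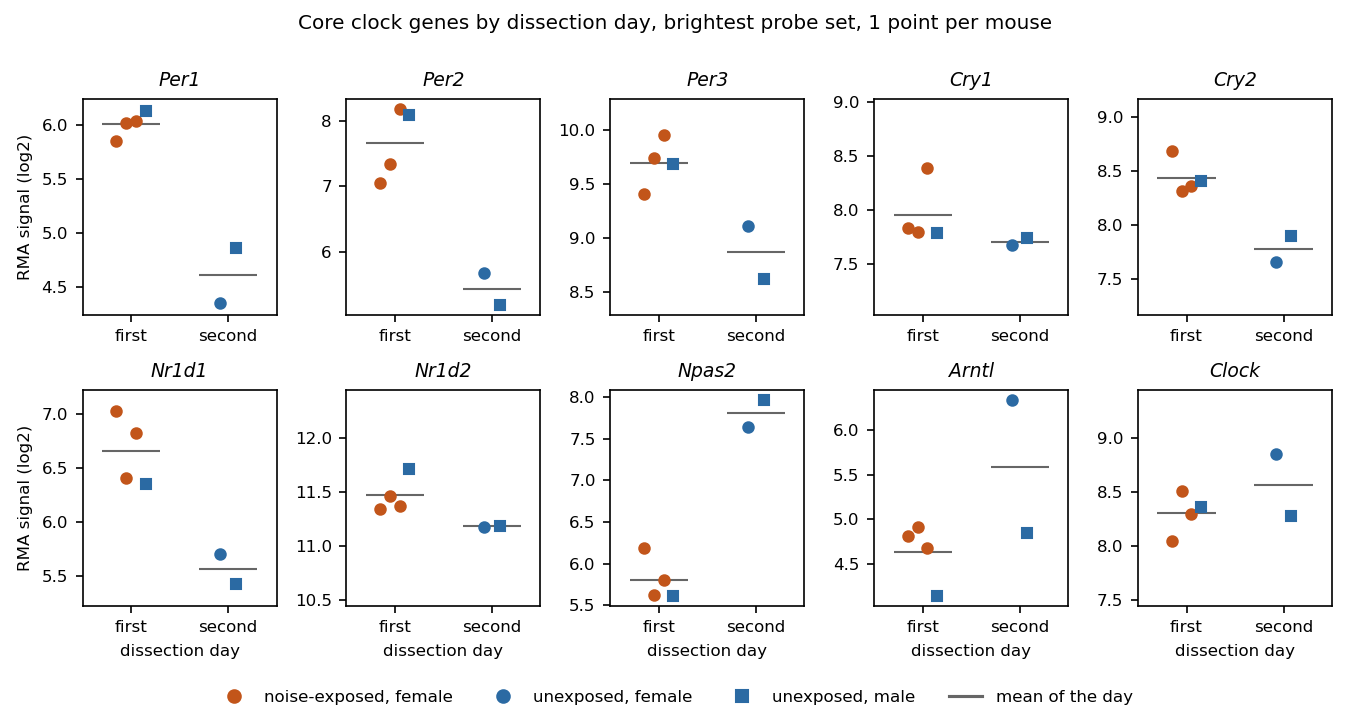
RMA signal (log2, a separate range for each panel) of the brightest tested probe set of each core clock gene against dissection day, with 1 point per mouse, colour for group, shape for sex and a line for the mean of the day. Unexposed replicate 1, the square on the first day, lies apart from the second-day mice in the panels of Per1, Per2, Npas2 and Nr1d1.

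The Per genes encode repressors that act with the CRY proteins. Per2 had signals of 7.06, 7.34 and 8.18 in the noise-exposed mice, 8.09 in unexposed replicate 1, and 5.69 and 5.20 in unexposed replicates 2 and 3. The unexposed mouse of the first day thus sat among the noise-exposed mice and well above both other unexposed mice. The first-day mean was 7.67 ± 0.55 (SD, n = 4) and the second-day mean 5.44 (n = 2), a difference of 2.22 or 4.67-fold. Among 11861 tested genes, 4 had a larger absolute day difference than Per2. A second Per2 probe set ran from 4.46 to 4.93 on the first day and gave 3.69 and 4.36 on the second, with 1 of these 2 below the cutoff. The third lay under the cutoff on all 6 arrays.

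Per1, which is also induced by stress hormones in other tissues, had signals of 5.85, 6.01 and 6.04 after noise exposure, 6.13 in unexposed replicate 1, and 4.35 and 4.86 on the second day. The 4 first-day values spanned less than their distance to the second day, and the difference of the means was 1.40 (2.64-fold). Both second-day signals were close to the cutoff. Per3 had signals of 9.40, 9.73 and 9.95 in the noise-exposed mice, 9.68 in unexposed replicate 1, and 9.11 and 8.62 on the second day. The 4 tested probe sets of Per3 gave day differences of 0.83, 0.89, 0.92 and 0.81, each with no overlap. Its 2 remaining probe sets were above the cutoff on 1 array each.

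The Cry genes encode the partners of the PER proteins in repression. Cry2 had signals of 8.68, 8.31 and 8.36 after noise exposure, 8.41 in unexposed replicate 1, and 7.65 and 7.90 on the second day, a difference of 0.66 (1.58-fold). Cry1 had signals of 7.84, 7.80 and 8.39 against 7.79 in unexposed replicate 1 and 7.68 and 7.74 on the second day. Its days were parted by only 0.05, and 1 mouse, noise-exposed replicate 3, carried most of the difference of 0.24, which was 0.10 without it.

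The Nr1d genes encode heme-binding receptors that repress the activator limb. Nr1d1 had signals of 7.03, 6.41 and 6.83 in the noise-exposed mice, 6.35 in unexposed replicate 1, and 5.70 and 5.42 on the second day. All first-day mice were higher, by 1.09 in the mean (2.13-fold). The bright probe set of Nr1d2 had signals of 11.34, 11.46 and 11.37 after noise exposure, 11.71 in unexposed replicate 1, and 11.17 and 11.18 on the second day, a difference of 0.29. Its dimmer probe set differed by 0.63. The sizes of the 2 probe sets were unlike, and both were separated by day in the same direction.

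Of the activators, Npas2 was separated in the opposite direction on 1 of its 2 tested probe sets. Npas2, the relative of CLOCK, had signals of 6.19, 5.62 and 5.81 in the noise-exposed mice, 5.61 in unexposed replicate 1, and 7.64 and 7.97 on the second day. The nearest mice of the 2 days were 1.45 apart and the means differed by -2.00, so the second day was 3.99-fold higher. The other tested probe set of Npas2 lay between 4.89 and 5.07 on all 6 arrays, close to the cutoff, and had a day difference of -0.07. The 2 probe sets of this gene thus did not show the same pattern, and the dimmer one says little so near the cutoff. Arntl had signals of 4.81, 4.91 and 4.68 after noise exposure, 4.15 in unexposed replicate 1, which is below the cutoff, and 6.34 and 4.85 on the second day. The days overlapped, and 1 mouse, unexposed replicate 2, set the difference of -0.95, which was -0.21 without it and -1.70 without unexposed replicate 3. Clock, the partner of BMAL1, differed least of the 3 on its brightest probe set. That brightest probe set had signals of 8.04, 8.51 and 8.29 after noise exposure, 8.36 in unexposed replicate 1, and 8.85 and 8.28 on the second day, with a day difference of -0.26 that was 0.03 without unexposed replicate 2. Of the 4 tested probe sets of Clock, 1 was separated by day, at -0.30.

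**Figure D2:**
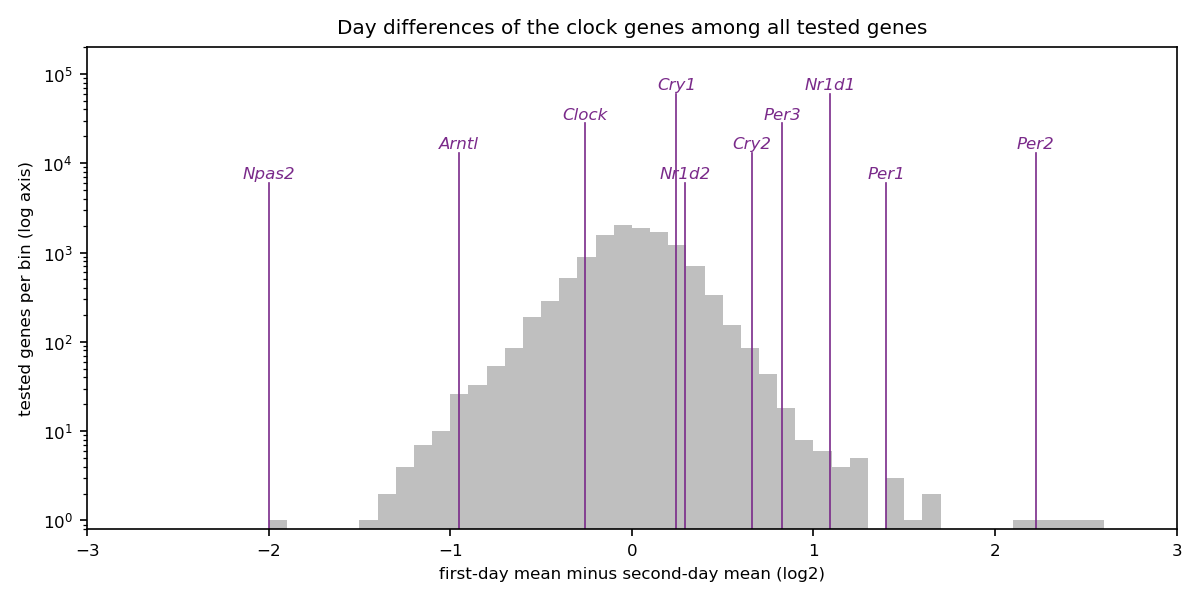
Histogram of the first-day minus second-day mean (log2) over all tested genes, 1 probe set each, on a log axis, with the clock genes as labelled lines. Per2 at 2.22 and Npas2 at -2.00 lie in the outer tails, and 1 gene beyond 3 is not drawn.

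A summary per mouse shows both limbs at once. Each gene was expressed as the deviation from its own mean over the 6 arrays, and the deviations were averaged by role. The 3 activators averaged -0.26, -0.26 and -0.34 in the noise-exposed mice, -0.57 in unexposed replicate 1, and 1.00 and 0.42 in unexposed replicates 2 and 3. The 5 Per and Cry genes averaged 0.17, 0.24 and 0.59 in the noise-exposed mice, 0.42 in unexposed replicate 1, and -0.70 and -0.73 on the second day. The 2 Nr1d genes were between 0.10 and 0.35 on the first day and at -0.39 and -0.53 on the second. Both second-day mice had Per and Cry and Nr1d averages below those of every first-day mouse, and unexposed replicate 1 lay within the range of the noise-exposed mice for these. For the activators, unexposed replicate 2 was above the gene's own mean in 3 of 3 genes, but unexposed replicate 3 in 1 of 3, Npas2, which alone gave its average of 0.42.

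Sex, group and day are unevenly spread over the 6 mice, so the day difference was also taken within subsets. Among the 3 mice that received no noise, unexposed replicate 1 exceeded the mean of the others by 2.64 for Per2, 1.52 for Per1, 0.82 for Per3 and 0.79 for Nr1d1, and its difference for Npas2 was -2.19. Between the 2 males the differences were 2.89 for Per2, 1.27 for Per1 and -2.36 for Npas2. Between the 3 first-day females and the second-day female they were 1.84, 1.62 and -1.77. The sign was the same in females and males for 9 of 10 genes on their brightest probe set and for 17 of 19 tested probe sets. For the 14 probe sets separated by day, any subset must give the same sign, so nothing is read from this count. Clock was the gene that differed, with -0.57 in females and 0.09 in males. The total RNA input was lowest on the second day. Within the first day the Per2 signal was 8.18 with 10 ng, 7.06 with 15 ng, 7.34 with 18 ng and 8.09 with 21 ng. A part of RNA input in the day difference was not tested. Group differences with the input in the model are given with the processing alternatives.

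**Figure D3:**
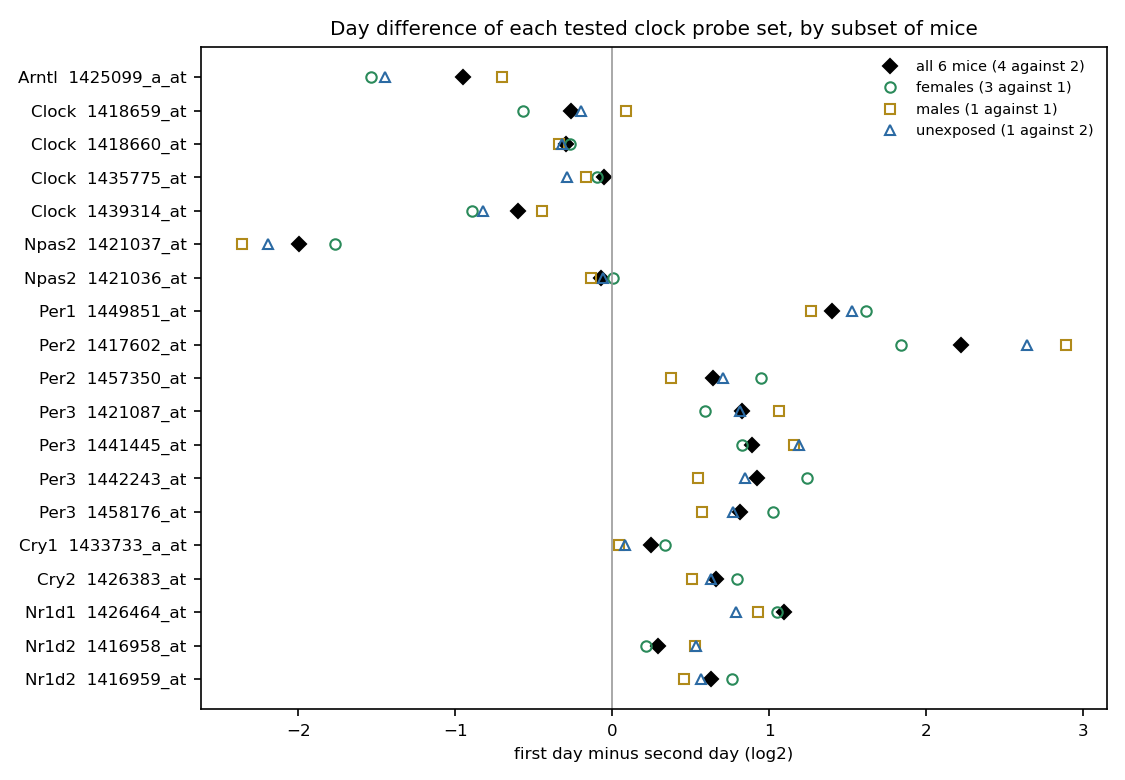
First-day minus second-day difference (log2) of each of the 19 tested clock probe sets, over all 6 mice and within females, males and unexposed mice. The Per, Cry and Nr1d probe sets lie right of 0 in each subset, which follows from their separation by day. The 2 Npas2 probe sets lie at -2.00 and -0.07 over all mice.

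The study's own comparison was noise-exposed against unexposed mice. None of the 19 clock probe sets was called (limma, adjusted p under 0.05 over all tested probe sets), where 0% of all 25200 were called. All 3 noise-exposed mice were dissected on the first day, so this contrast contains the day, and its values are no independent evidence beside the day differences. The clock gene with the lowest p was Nr1d1, at 6.75 ± 0.31 (SD, n = 3) after noise and 5.83 ± 0.48 (n = 3) without. Its log2 fold change was 0.93 (SE 0.27, limma adjusted p = 0.668). At an unadjusted p under 0.05 it was the 1 clock probe set of 19, where 7.07% of all tested probe sets passed. That count depended on the model, and its other values are given with the processing alternatives. Npas2 stood at 5.87 ± 0.29 after noise and 7.07 ± 1.28 without, and its log2 fold change was -1.20 (SE 0.56, limma adjusted p = 0.707). Per2 stood at 7.53 ± 0.58 after noise and 6.32 ± 1.55 without, with a log2 fold change of 1.20 (SE 0.70, limma adjusted p = 0.728). The SD of the unexposed group exceeded that of the noise-exposed group for 9 of 10 genes on their brightest probe set, as for Per1 (0.92 against 0.10) and Arntl (1.12 against 0.12). Cry1 was the exception (0.06 against 0.33), and over all 19 tested probe sets the count was 17. The unexposed mice span both days and the noise-exposed mice the first day alone. For genes chosen by day a larger unexposed SD follows in part from that, so nothing is read from these SD counts. The groups did not overlap for 2 clock probe sets, Nr1d1 and Cry1, both higher after noise, where 8.47% of all tested probe sets were.

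Single unexposed mice moved these values. The log2 fold change of Per2 was 2.08 without unexposed replicate 1 and 0.64 without unexposed replicate 3. That of Npas2 was -1.93 and -0.75 in the same order. That of Per1 was 1.36 without unexposed replicate 1 and 0.47 without unexposed replicate 2. Without unexposed replicate 1 group and day coincide, so those values are day differences. With sex in the model, where the second-day female is the only unexposed female, the log2 fold change was 1.84 for Per2, 1.62 for Per1, -1.77 for Npas2 and -1.53 for Arntl, which are the day differences among females. With dissection day in the model, where unexposed replicate 1 alone stands for the unexposed mice, the log2 fold change was -0.56 for Per2 (SE 0.45, limma adjusted p = 0.868) and 0.26 for Npas2 (SE 0.28, limma adjusted p = 0.914). That of Per1 was -0.16 (SE 0.25), against 0.85 without the day, and that of Nr1d1 was 0.40 (SE 0.29). Again 0% of all tested probe sets and no clock probe set were called. The absolute log2 fold change became smaller with the day in the model for 8 of the 10 clock genes, and its median went from 0.51 to 0.24. Over all tested genes 39.4% became smaller, and the median went from 0.16 to 0.20. Since the genes were chosen for their day difference, a smaller group difference after taking out the day follows in part from that choice. With 1 unexposed mouse on the first day, the spread among unexposed mice of that day is unknown. That mouse was a male, and the noise-exposed mice were females of another litter. The group difference with day in the model is therefore also a difference of sex and litter.

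**Figure D4:**
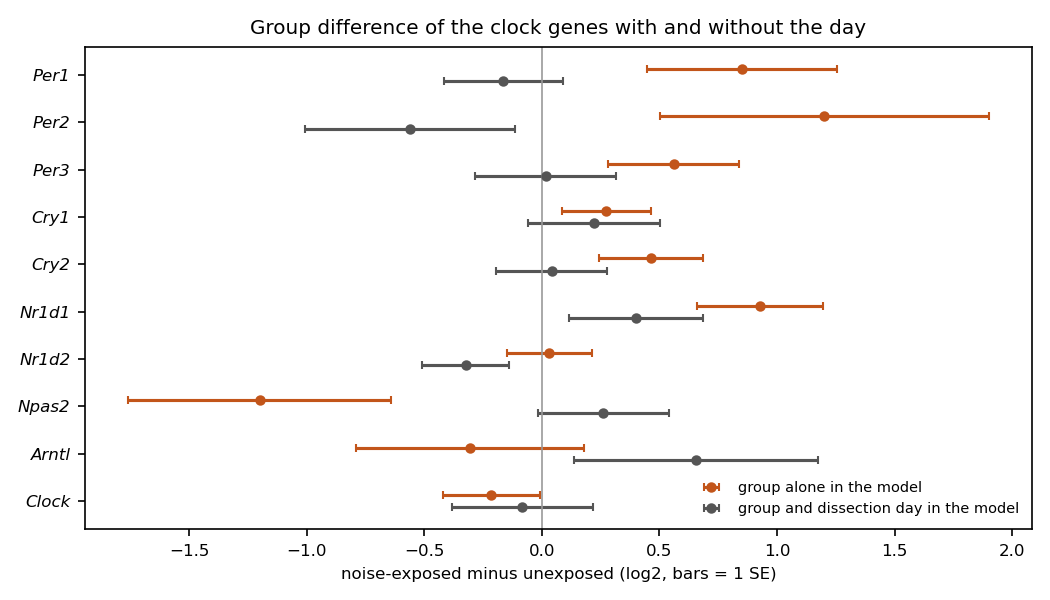
Noise-exposed minus unexposed log2 difference of the 10 clock genes (brightest probe set, bars of 1 SE from limma) with the group alone in the model and with dissection day added. Per2 moves from 1.20 to -0.56 and Npas2 from -1.20 to 0.26.

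Other genes of the pathway were taken from a list of accessory factors, of which 15 of 20 were tested. Their first-day mean was higher for 10 and lower for 5, with a median of 0.22 against 0.01 over all tested genes, and 5 were separated upward and 0 downward. Of all 11861 tested genes 6194 had a higher first-day mean, 8.86% were separated upward and 7.87% downward. Ciart, the repressor whose promoter is shown above, had signals of 6.05, 6.09 and 6.08 in the noise-exposed mice, 6.64 in unexposed replicate 1, and 5.01 and 4.91 on the second day, a difference of 1.25. Bhlhe40 (Dec1), which competes for E-boxes, had a difference of 0.51, and Usp2, a deubiquitinase under clock control, one of 0.38. Bhlhe41 (Dec2), the relative of Bhlhe40, was at 0.58 and Arntl2, the paralogue of Arntl, at 0.38, both with overlapping days. All Bhlhe41 signals were low, and that of unexposed replicate 3 (3.75) was below the cutoff. With each array left out the difference ran from 0.19 to 0.96 for Bhlhe41 and from -0.51 to 1.27 for Arntl2. Timeless, a replication fork factor that has been linked to the clock, was above the cutoff on all 4 first-day arrays and on neither second-day array, so the size of its difference is not given. None of the 15 was called between the groups (limma).

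The PAR bZIP factors bind D-boxes and carry the rhythm from the loop to other genes. Dbp, a direct target of CLOCK and BMAL1, had signals of 9.31, 9.23 and 9.91 in the noise-exposed mice, 9.20 in unexposed replicate 1, and 8.33 and 7.93 on the second day, a difference of 1.28. Tef (0.72) and Hlf (0.27) were separated in the same direction, and Nfil3, which represses through the same D-box, overlapped at 0.21. The days of Hlf nearly met, at 8.18 in noise-exposed replicate 1 and 8.16 in unexposed replicate 3. Of 7 tested genes of a further output list 3 were higher and 4 lower on the first day, with a median of -0.05. Noct, a phosphatase with rhythmic mRNA, was separated downward at -0.33, and Pdk4, a kinase of the pyruvate dehydrogenase complex, upward at 0.15. The days of Pdk4 were almost tied, at 12.052 in noise-exposed replicate 1 and 12.049 in unexposed replicate 2.

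Per1 and Per2 also respond to glucocorticoids and to stimulus-induced signalling, so lists of both were read beside them. Of 10 glucocorticoid-induced genes 8 had a higher and 2 a lower first-day mean (median 0.31), and 4 were separated upward and 0 downward. Of all 11861 tested genes 6194 had a higher first-day mean, 8.86% were separated upward and 7.87% downward. Fkbp5, a chaperone of the glucocorticoid receptor, had signals of 6.07, 6.40 and 7.16 in the noise-exposed mice, 7.91 in unexposed replicate 1, and 5.28 and 5.30 on the second day. Zbtb16 had 6.59, 6.51 and 8.21, then 8.98, then 6.48 and 6.40 in the same order, so its days nearly met, at 6.51 and 6.48. In both Fkbp5 and Zbtb16, as in Per2, the highest first-day mice were noise-exposed replicate 3 and unexposed replicate 1, a likeness noticed after the values were seen. Klf9, a repressor of transcription, had a day difference of 0.52 and Mt1, a metallothionein, one of 0.51, while Tsc22d3 (0.37) and Mt2 (-0.33) overlapped. Of 6 tested immediate early genes 5 had a lower first-day mean, with Dusp1 at -0.57 and Egr1 at -0.30 separated, and Atf3 was separated upward at 0.53. The days of Atf3 nearly met, at 4.64 in noise-exposed replicate 3 and 4.61 in unexposed replicate 2. A part of either response in the Per signals was not tested.

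**Figure D5:**
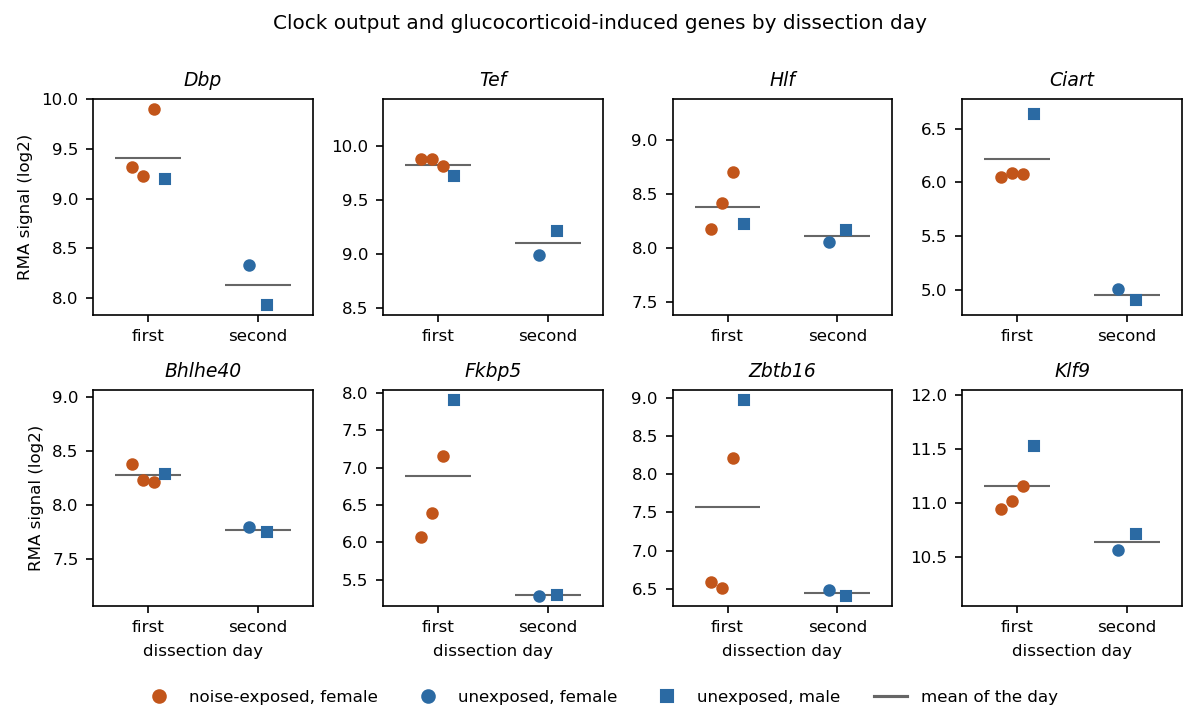
RMA signal (log2, a separate range for each panel) of clock output genes and glucocorticoid-induced genes against dissection day, drawn as for the clock genes and picked after their values were seen. Dbp, Tef and Ciart are separated by day. On the first day Tef runs from 9.72 to 9.88, Ciart from 6.05 to 6.64 and Dbp from 9.20 to 9.91. Fkbp5 runs from 6.07 to 7.91 and Zbtb16 from 6.51 to 8.98 on that day.

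Cell type markers were read by list. The median day difference was 0.13 for the 7 tested neuronal markers, 0.16 for 4 Schwann and satellite glial markers, -0.12 for 5 central glial, 0.03 for 5 macrophage, 0.03 for 6 endothelial and pericyte and 0.18 for 5 fibroblast markers. Of these lists 2 neuronal (Tubb3 at 0.46 and Nefh at 0.13), 2 fibroblast (Bgn at 0.52 and Col3a1 at 0.29) and 1 macrophage marker (Tyrobp at 0.47) were separated upward, and 1 central glial marker (Gfap at -0.36) downward. The nearest first-day and second-day arrays almost met for Nefh (11.81 and 11.80), Col3a1 (8.15 and 8.12) and Gfap (10.27 and 10.31). Of all tested genes 8.86% were separated upward and 7.87% downward. For 5 tested of 6 osteoblast and osteocyte markers the median day difference was 0.38, with 3 separated upward (8.86% of all tested genes). Their mean signal was 8.28 to 8.82 on the first day and 8.09 to 8.37 on the second. The mean signal of the neuronal list was 9.84 to 10.09 on the first day and 9.83 to 9.93 on the second. Of 6 neutrophil lineage markers only S100a8 and S100a9 were tested, and both were higher on all first-day arrays, as were 8.86% of all tested genes. S100a8 was above the cutoff on all 4 first-day arrays and on neither second-day array, so the size of its difference is not given. S100a9 had signals of 6.42, 5.93 and 5.50, then 6.31 in unexposed replicate 1, and 4.07 and 5.15 on the second day, the first of these below the cutoff. Ngp, Camp, Elane and Mpo, the defining granule genes of that lineage, had no tested probe set. A part of cell composition in the clock signals was not tested.

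The genes most like the clock genes over the arrays were named by Pearson's r over the 6 arrays, among 3596 named probe sets that spanned at least 1 log2 unit. These values are a description. For Nr1d1 the 6 points fall into 2 days, which alone can give a high r. The days of Arntl overlapped, and unexposed replicate 2 stood apart at 6.34, as it did for Gpx7 at 6.12. A single array that stands apart can also give a high r. Most alike to Nr1d1 were Top2b (r = 0.984), Spast (0.983), Gins3 (0.983), Zfyve21 (0.977) and Grwd1 (0.969). Most opposite were Map4k5 (-0.967), 1500002F19Rik, Fign, Trappc12 and S100pbp (-0.956). Most alike to Arntl were Gpx7 (0.996), Nup155, Lrig1, Mplkip and Atg101 (0.985), and most opposite were Hbb-b2 (-0.965), Myb, Rasa1, Ifi27l2a and Fam126b (-0.943). None of the 20 genes was another core clock gene.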

How the data were processed

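Messenger RNA of 6 mice was measured with 1 Affymetrix mouse genome array each. The authors deposited log2 signals made with RMA (robust multi-array averaging: background correction, quantile normalization and median-polish summary of the 6 arrays) in R 2.6.1 with Bioconductor release 2.1, per their deposited code file. Quantile normalization hides a shift of most transcripts in 1 direction. Per the labels' protocols, 8 to 21 ng of total RNA was linearly amplified, which can widen the spread between arrays. RNA of all mice was extracted in parallel.

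Of 45101 probe sets 34958 had 1 gene symbol, 932 several and 9211 none. Symbols were updated through Entrez IDs in the RefSeq table for 34754, and 64 control probe sets were left out. Genes with several probe sets were shown by the tested one with the highest mean. The number of arrays limits the precision. The arrays had 24704 to 25404 probe sets over the cutoff.

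Noise-exposed and unexposed arrays were compared over all tested probe sets with limma 3.58.1 in R 4.3.3 (two-sided, Benjamini-Hochberg, threshold 0.05), after a check on simulated data. Day differences were computed without a test. Alternatives covered normalization, the signal filter, day, sex, RNA input and the replicate number in the model, subsets, and each array left out. Replicate numbers did not pair the mice. The members and lists were chosen with earlier results of these data known. Named genes were all clock probe sets, at most 6 genes of each other list by absolute day difference, and the 5 most alike and 5 most opposite to Arntl and Nr1d1. Promoters came from RefSeq.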

Additional observations from a re-analysis of the deposited data

Results flagged for a closer look

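Cry1 on noise-exposed replicate 3 had a signal of 8.39, while the other 3 first-day arrays lay between 7.79 and 7.84. It was the 1 clock probe set of 19 with a first-day array far from the others (gap over range 0.911). About 1 in 20 groups of this size is marked in this way when no array stands apart.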

How the results depend on the processing

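The number of probe sets called between the groups was 0 under all alternatives run but 2: 3 were called with the first day alone and 15 without unexposed replicate 2, the highest of the 6 counts with an array left out (lowest 0). No clock probe set was called under any of them. With the replicate block 0 probe sets were called, and the block changed no call. The count of clock probe sets at an unadjusted p under 0.05, 1 of 19 as reported, was 9 with sex in the model, 5 with the replicate block, 5 with trend and robust eBayes, 0 with day in the model and 1 to 10 with each array left out, the highest without unexposed replicate 1. With sex in the model or without that mouse the contrast is a day difference, on which the genes were chosen, so nothing is read from 9 or 10. Correlations of the deviations of same-numbered mice were 0.094, 0.025 and -0.038, so the numbers pair no mice. The log2 group difference turned its sign with day in the model, and likewise with the first day alone, for Arntl (0.66), Npas2 (0.26), Per1 (-0.16), Per2 (-0.56) and Nr1d2 (-0.32). With RNA input in the model it did so for Nr1d2 (-0.07). That model gave 0.80 for Per2, -0.79 for Npas2 and 0.57 for Per1, against 1.20, -1.20 and 0.85 with the group alone. For Cry1 it gave 0.32 against 0.27. With each array left out Arntl ran from -0.79 to 0.31, the latter without unexposed replicate 2, and Nr1d2 from -0.06 to 0.21. The count of clock probe sets separated by day by 1 or more, 4 in all mice, was 7 in females alone, where 1 second-day mouse is compared, and 3 to 6 with each array left out. Renewed quantile normalization and median centring moved no day difference of the clock, accessory, PAR bZIP and glucocorticoid-induced genes beyond the spread within days. The further output and immediate early genes were not included in this check. The 2 mice of the second day limit every statement about it.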
